A study of Saccharomyces cerevisiae with 6 samples.

Results

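The hexose transporter genes of budding yeast encode the plasma membrane carriers through which the cell takes up glucose and related sugars. The genes described here are HXT1, HXT2, HXT3, HXT4, HXT5, HXT7, HXT8, HXT9, HXT10 and GAL2, chosen by gene symbol in the array's annotation. All 10 had a probe set, out of 5449 genes analysed on the array, and for HXT9, which had more than 1, the brightest over all 6 arrays was used.

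Transcript levels were measured on Affymetrix yeast arrays in 3 cultures of an npl3 deletion strain and 3 of wild type. Npl3 binds RNA and stays with mRNA through transcription, processing and export. The npl3 deletion cells (strain WNPL3B1-2B) carried npl3::KanMX. The wild type cells were W303-1A with BAR1 deleted. By their labels, both genotypes were MATa and carried the bar1ΔHphMX deletion. The labels also give both the alleles can1-100, ura3-1, his3-11,15, trp1-1 and ade2-1 and the leu2 allele that joins mutations 3 and 112. Cultures were grown to mid-log phase in YPAD, a rich medium with glucose and added adenine. The labels name 1 strain for each genotype, so differences between the 2 strains other than NPL3 cannot be told apart from its loss.

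Glucose uptake in yeast is carried by a family of related facilitators that differ in their affinity for the sugar. Hxt1 and Hxt3 are low-affinity carriers used when glucose is plentiful, whereas Hxt2, Hxt4, Hxt6 and Hxt7 have intermediate or high affinity and Gal2 also carries galactose. Glucose sensed at the membrane by Rgt2 and Snf3 leads to the loss of Mth1 and Std1, which frees HXT promoters from the repressor Rgt1. At high glucose the repressor Mig1 and its relatives keep several high-affinity genes down.

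In the npl3 deletion, 5 of the 10 genes fell and 3 rose, and 2 did not pass the test (limma, adjusted p under 0.05 over all genes). HXT1 and HXT4 fell most, with log2 differences of -4.06 and -2.97, and HXT7, HXT3 and HXT5 fell too, with differences of -1.44, -1.14 and -1.07. HXT2, HXT9 and HXT8 rose by 0.62, 0.70 and 0.54, HXT8 at signals that an absent transcript can also give. Calls were frequent on these arrays: 61.8% of all genes were called in either direction, 28.9% lower and 32.9% higher in the deletion. The 8 of 10 genes called should be read against that 61.8%. A call with at least a 1.5-fold change was made for 7 of the 10, against 16.9% of all genes. The median difference of the 10 was -0.62, beside 0.01 over all genes. Each array measured the RNA of a whole culture, so fewer expressing cells and less RNA per cell cannot be told apart.

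**Figure D1:**
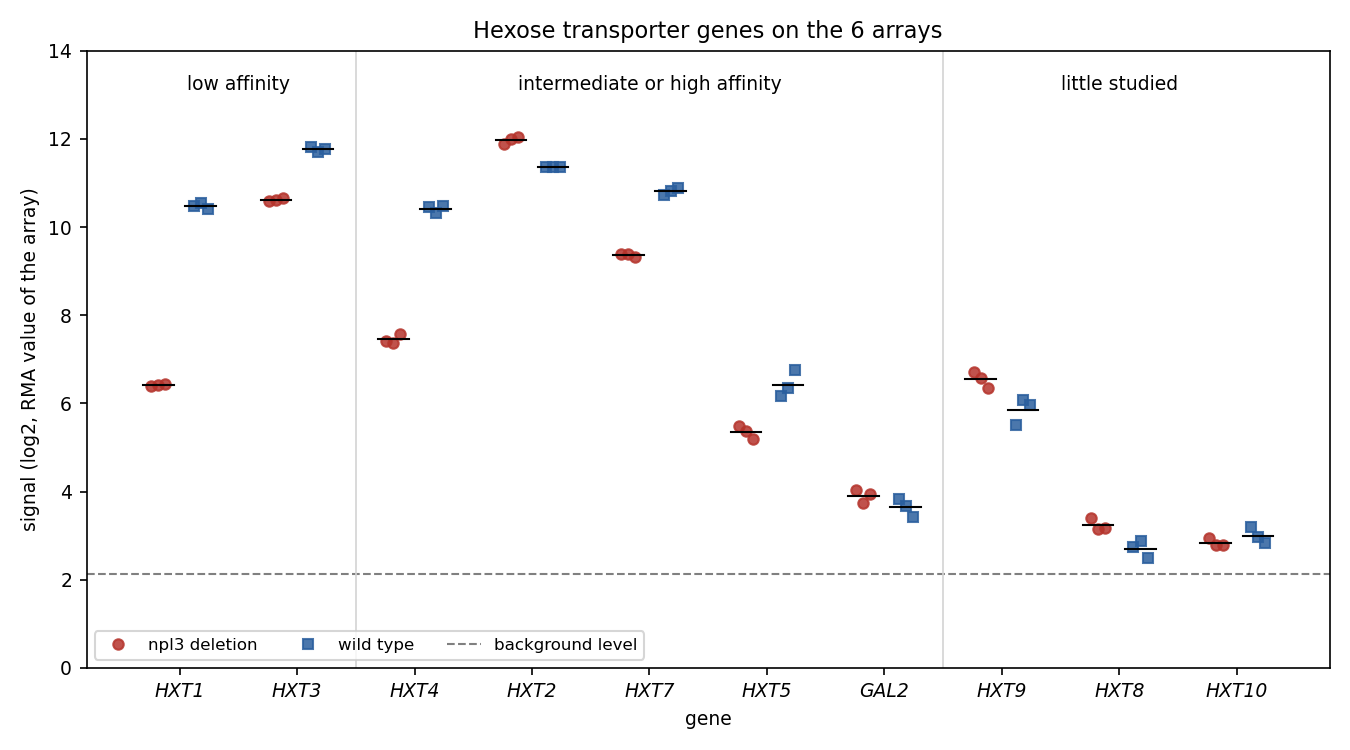
Signal of each hexose transporter gene on each array (y axis, log2 RMA value), with the 3 npl3 deletion arrays as red circles left of the 3 wild type arrays as blue squares and a black line at each mean. HXT1 lies between 6.40 and 6.45 on the deletion arrays and between 10.41 and 10.55 on the wild type arrays, and the groups overlap for HXT10 and GAL2. The dashed line is the background level of 2.13.

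Values are log2 signals of single probe sets, whose probes differ in binding strength, so signals of different genes do not give the order of their transcript levels. The background level is 2.13, the 95th percentile of 1746 probe sets whose gene symbols are not those of budding yeast genes. An absent transcript can read above it. NPL3 itself had 3.80, 4.04 and 4.04 in the deletion, against 10.75, 11.37 and 11.33 in wild type cells. All 10 transporter genes averaged above the background level over the 6 arrays, but HXT8, HXT10 and GAL2 read no higher than 4.03 on any array, below the highest NPL3 value in the deletion.

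The arrays of a genotype were alike, with Pearson r across genes of 0.996 to 0.998 within and 0.956 to 0.961 between genotypes (genes are not independent replicates). BAR1 averaged 1.06 in the deletion and 1.10 in wild type cells. LEU2, named as the same allele in both genotypes, averaged 8.51 in the deletion and 2.85 in wild type cells. Its difference of 5.66 ranked 1 of 5449 by size of rise. Whether the strains differ at LEU2 or elsewhere, against their labels, was not tested. The 4 MATa marker genes averaged 9.68 to 11.18 in the deletion and 10.15 to 11.14 in wild type cells, and the 3 MATalpha marker genes averaged 3.13 to 4.41 in the deletion and 3.72 to 4.35 in wild type cells. Array controls also moved with genotype. The 9 hybridization controls averaged 7.99, 8.92 and 9.11 on the deletion arrays and 9.27, 9.25 and 9.40 on the wild type arrays. The 12 labelling controls averaged 4.60 to 4.99 in the deletion and 3.99 to 4.23 in wild type cells. The 5′ minus 3′ signal of 8 control genes averaged -0.87 to -0.83 on the deletion arrays and -1.44 to -1.31 on the wild type arrays. The part of these differences in the transporter results was not tested.

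Both low-affinity genes fell. HXT1 (YHR094C, chromosome VIII), the carrier gene known for its induction by high glucose, read 6.40, 6.42 and 6.45 in the deletion, against 10.48, 10.55 and 10.41 in wild type cells. The groups lay far apart, with an SD of 0.03 in the deletion and 0.07 in wild type cells (n = 3 arrays each). The difference was -4.06 (SE 0.05, 95% interval -4.18 to -3.94, adjusted p = 8.26e-09), a level 16.7-fold lower. HXT1 ranked 6 of 5449 by size of fall.

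HXT3 (YDR345C, chromosome IV), the other low-affinity carrier gene, is expressed over a wide range of glucose concentrations. It read 10.59, 10.62 and 10.66 in the deletion and 11.83, 11.71 and 11.76 in wild type cells. The 2 groups did not overlap, and all 6 signals were far above background. HXT3 fell by 1.14 (SE 0.05, 95% interval -1.26 to -1.03, adjusted p = 1.79e-06), a 2.21-fold change, and ranked 153 by size of fall.

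The low-affinity genes therefore fell by unequal amounts. The contrast HXT1 minus HXT3 within an array was -4.20, -4.20 and -4.21 in the deletion and -1.35, -1.16 and -1.36 in wild type cells. Its difference was -2.91 and it was lower on all 3 deletion arrays (exact permutation test, two-sided, p = 0.1, the smallest that 3 against 3 can give). Of 5 such pairs of genes compared, chosen after the values were seen, all gave an exact permutation p = 0.1, also after adjustment over the 5. The ranges of the separate signals already fixed that outcome for all 5 pairs, so these p-values are not evidence. For HXT2 minus HXT7 it also followed from the directions, since HXT2 rose and HXT7 fell with no overlap of the groups.

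Among the genes of intermediate or high affinity, 3 fell, 1 rose and 1 did not pass the test. HXT4 (YHR092C, chromosome VIII), a carrier gene induced at low glucose, read 7.41, 7.37 and 7.57 in the deletion, against 10.46, 10.31 and 10.48 in wild type cells. All deletion arrays lay well below all wild type arrays. HXT4 fell by 2.97 (SE 0.07, 95% interval -3.14 to -2.80, adjusted p = 1.60e-07), or 7.83-fold, and ranked 9 among all genes by size of fall. The contrast HXT1 minus HXT4 was -1.01, -0.96 and -1.12 in the deletion and 0.01, 0.25 and -0.08 in wild type cells, a difference of -1.09.

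HXT7 (YDR342C, chromosome IV) encodes a high-affinity carrier that is abundant when glucose is scarce. Its probe set carries the suffix that the array maker gives to probes shared by several transcripts. HXT6, a near-identical copy next to HXT7, had no probe set of its own symbol among those analysed here, so the signal can hold both. It read 9.39, 9.39 and 9.33 in the deletion and 10.72, 10.83 and 10.88 in wild type cells. The groups were well apart, and the signal fell by 1.44 (SE 0.06, 95% interval -1.57 to -1.31, adjusted p = 1.10e-06), or 2.71-fold.

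HXT2 (YMR011W, chromosome XIII), a carrier gene induced at low glucose, moved the other way. It read 11.89, 12.00 and 12.05 in the deletion, against 11.37, 11.35 and 11.36 in wild type cells. Every deletion array lay above every wild type array, and the wild type arrays were almost equal (SD 0.0095). The rise was 0.62 (SE 0.05, 95% interval 0.50 to 0.75, adjusted p = 4.35e-05), or 1.54-fold. HXT2 minus HXT7 was 2.50, 2.62 and 2.72 in the deletion and 0.65, 0.53 and 0.48 in wild type cells. Because HXT2 rose and HXT7 fell with no overlap of the groups, this contrast had to separate them and adds nothing to the 2 calls.

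HXT5 (YHR096C, chromosome VIII) encodes a carrier of moderate affinity whose expression is linked to slow growth and to entry into stationary phase. It read 5.49, 5.37 and 5.20 in the deletion and 6.17, 6.36 and 6.76 in wild type cells. Its wild type arrays had a wide spread (SD 0.30), and the gap between the groups was nonetheless larger than the range of either. HXT5 fell by 1.07 (SE 0.15, 95% interval -1.42 to -0.73, adjusted p = 4.89e-04), or 2.10-fold.

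GAL2 (YLR081W, chromosome XII), the galactose permease gene, is repressed by glucose and was dim on all arrays. It read 4.03, 3.73 and 3.95 in the deletion, against 3.84, 3.68 and 3.42 in wild type cells. The groups overlapped and the difference of 0.26 (SE 0.12, 95% interval -0.01 to 0.53, adjusted p = 0.0888) did not pass the test. It passed without npl3 deletion replicate 2 (0.35, adjusted p = 0.0481), without wild type replicate 1 (0.36, adjusted p = 0.0272) and with array weights (0.33, adjusted p = 0.0357). Quantile normalization gave a smaller value of 0.077 (adjusted p = 0.611), and leaving out wild type replicate 3 gave 0.15 (adjusted p = 0.255).

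**Figure D2:**
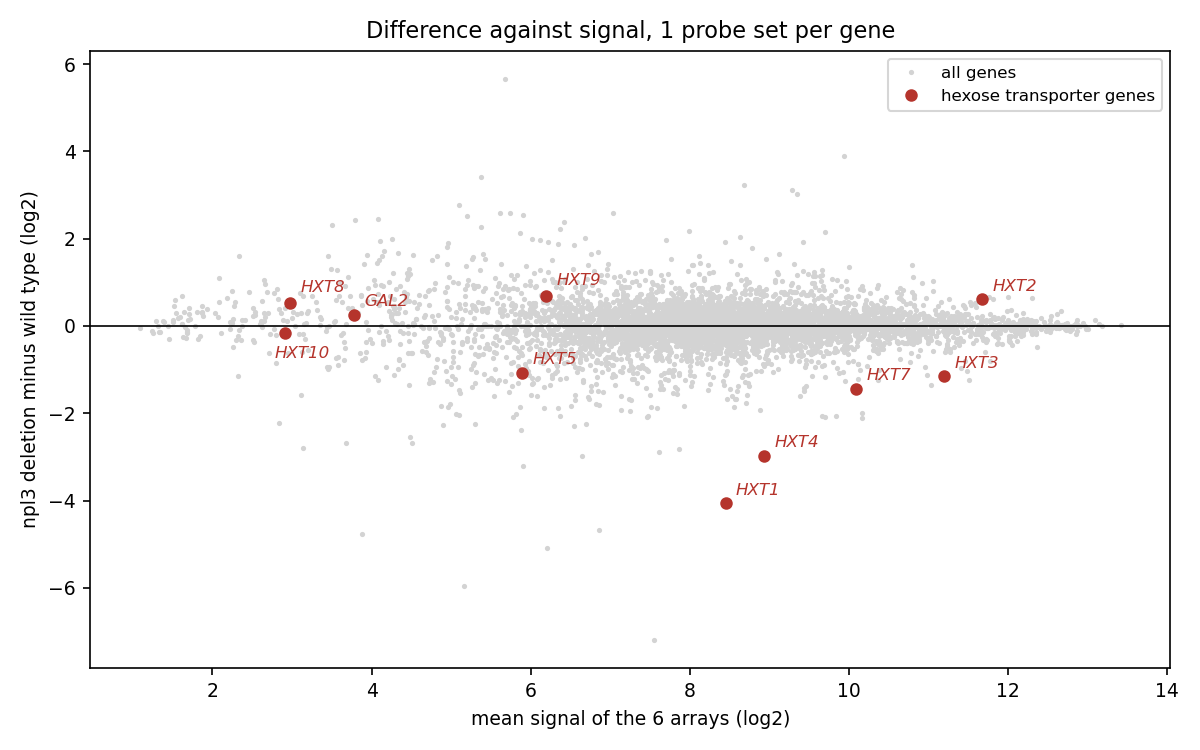
Difference of each gene (y axis, npl3 deletion minus wild type, log2) against its mean signal over the 6 arrays (x axis, log2), with all genes in grey and the 10 hexose transporter genes in red. HXT1 and HXT4, at -4.06 and -2.97, lie far below the bulk of genes of similar signal, HXT3 and HXT7 lie below it at -1.14 and -1.44, and HXT2 lies above it at 0.62.

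The little studied genes HXT8, HXT9 and HXT10 had dim or moderate signals. HXT9 (YJL219W, chromosome X), whose protein is linked to drug resistance more than to growth on glucose, read 6.72, 6.57 and 6.35 in the deletion and 5.51, 6.07 and 5.97 in wild type cells. The lowest deletion array stood above the highest wild type array. The rise was 0.70 (SE 0.15, 95% interval 0.34 to 1.05, adjusted p = 0.00530), or 1.62-fold. A second probe set for HXT9, which can match several transcripts, rose by 0.31 (SE 0.08), averaging 5.41 in the deletion and 5.10 in wild type cells. The direction was thus shared by both probe sets, and the size was not.

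HXT8 (YJL214W, chromosome X) read 3.40, 3.16 and 3.16 in the deletion, against 2.74, 2.88 and 2.50 in wild type cells. The groups did not overlap and the rise was 0.54 (SE 0.11, 95% interval 0.28 to 0.79, adjusted p = 0.00349). These signals lie within the range that an absent transcript can give, so whether HXT8 rose at all is uncertain. HXT10 (YFL011W, chromosome VI) read 2.95, 2.78 and 2.78 in the deletion and 3.19, 2.97 and 2.82 in wild type cells. Its groups overlapped and the difference of -0.16 (SE 0.10, 95% interval -0.39 to 0.07, adjusted p = 0.189) did not pass the test, though it did under quantile normalization (-0.29, adjusted p = 0.00550). Without wild type replicate 1 the difference was -0.06 (adjusted p = 0.524), and without wild type replicate 3 it was -0.25 (adjusted p = 0.0523).

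The groups did not overlap for 8 of the 10 genes, against 68.8% of all genes. By affinity class, 2 of 2 low-affinity genes fell (median -2.60). Of 5 genes of intermediate or high affinity, 3 fell and 1 rose (median -1.07). Of the 3 little studied genes, 2 rose and none fell (median 0.54), but the rise of HXT8 is uncertain at its dim signals. Over all genes, 28.9% fell, 32.9% rose and 61.8% were called, and the 4 of 5 and 2 of 3 genes called in the last classes are near that share.

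Of the 8 other genes of the family looked for, 6 had a probe set, and the 16 transporter genes measured had 19 probe sets between them. Probe sets that can match several transcripts were those of HXT7, HXT15 and HXT17, the second ones of HXT9 and HXT17, and the second one of HXT13. Among these 6 genes, HXT11 and HXT15 rose, by 0.56 and 0.47 (adjusted p = 0.0212 and 0.00545), and HXT13 fell by 0.33 (adjusted p = 0.0334). The 3 called of 6 are below the 61.8% called over all genes. HXT11, a close relative of HXT9, read 4.80, 4.60 and 4.71 in the deletion and 3.86, 4.57 and 4.01 in wild type cells, and the highest wild type array came close to the lowest deletion array. HXT15 averaged 1.75 in the deletion and 1.28 in wild type cells, below the background level in both. HXT13 averaged 2.13 in the deletion, at the background level, and 2.46 in wild type cells. Its second probe set differed by -0.06 (SE 0.15), so whether HXT13 fell is uncertain. HXT14, HXT17 and the glycerol carrier gene STL1 differed by 0.25, -0.39 and 0.15 and did not pass the test. The second probe set of HXT17 averaged 1.68 in the deletion, below the background level, and 2.76 in wild type cells, within the range that an absent transcript can give, so the size of its difference is not interpretable. Of these 3 called genes, HXT15 kept its call with each array left out in turn. HXT11 lost it without npl3 deletion replicate 1 or 3 or wild type replicate 1 or 3 (adjusted p up to 0.0697), and HXT13 without npl3 deletion replicate 2 or 3 or wild type replicate 1 or 3 (adjusted p up to 0.104). Leaving out npl3 deletion replicate 2 brought calls for HXT14 (adjusted p = 0.0224) and HXT17 (adjusted p = 0.0424). HXT17 also passed under quantile normalization (adjusted p = 0.0101) and with the mean of its probe sets (adjusted p = 0.00324). That mean takes in the second probe set of HXT17, so the latter pass rests in part on a difference that is not interpretable. HXT13 missed the threshold with the mean of its probe sets (adjusted p = 0.105) and with a trended, robust variance (adjusted p = 0.113). The number called fell to 1 without npl3 deletion replicate 3, wild type replicate 1 or wild type replicate 3.

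Of the genes, 5 lie in 2 runs on the chromosomes of the reference strain. On chromosome VIII the order is HXT4, AHT1, HXT1 and HXT5, and on chromosome IV it is HXT7, HXT6, YDR344C and HXT3. All 5 measured transporter genes of these runs fell, where 28.9% of all genes did. The fall differed along the run on chromosome VIII, and HXT4 minus HXT5 was 1.92, 2.00 and 2.37 in the deletion and 4.30, 3.95 and 3.73 in wild type cells. On chromosome IV, HXT3 minus HXT7 was 1.20, 1.24 and 1.33 in the deletion and 1.11, 0.89 and 0.88 in wild type cells, a smaller difference of 0.30. Outside these runs, HXT9 and HXT8, which rose, lie close together on chromosome X. Of the genes between them, YJL218W and IMA5 rose by 0.28 and 0.87 and REE1 did not pass the test. On the other side of HXT8, YJL213W, OPT1 and PEX2 fell, with differences of -1.85, -1.50 and -1.24, and CBP1 rose by 0.25. Over all genes, 32.9% rose and 28.9% fell.

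The genes around the runs moved in both directions. Of 9 measured neighbours within 5 genes of the run on chromosome VIII, 3 rose, 3 fell and 3 did not pass the test. MSR1, next to HXT4, averaged 7.62 in the deletion and 7.61 in wild type cells, and SFB3, beyond HXT5, averaged 10.23 and 10.25. Of 8 measured neighbours of the run on chromosome IV, 2 rose, 2 fell and 4 did not pass the test, with differences from -0.18 to 0.52. Over all genes, 32.9% rose and 28.9% fell, close to the shares among both sets of neighbours. AHT1, YDR344C and PAL2, which lie within or beside the runs, were not analysed here.

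**Figure D3:**
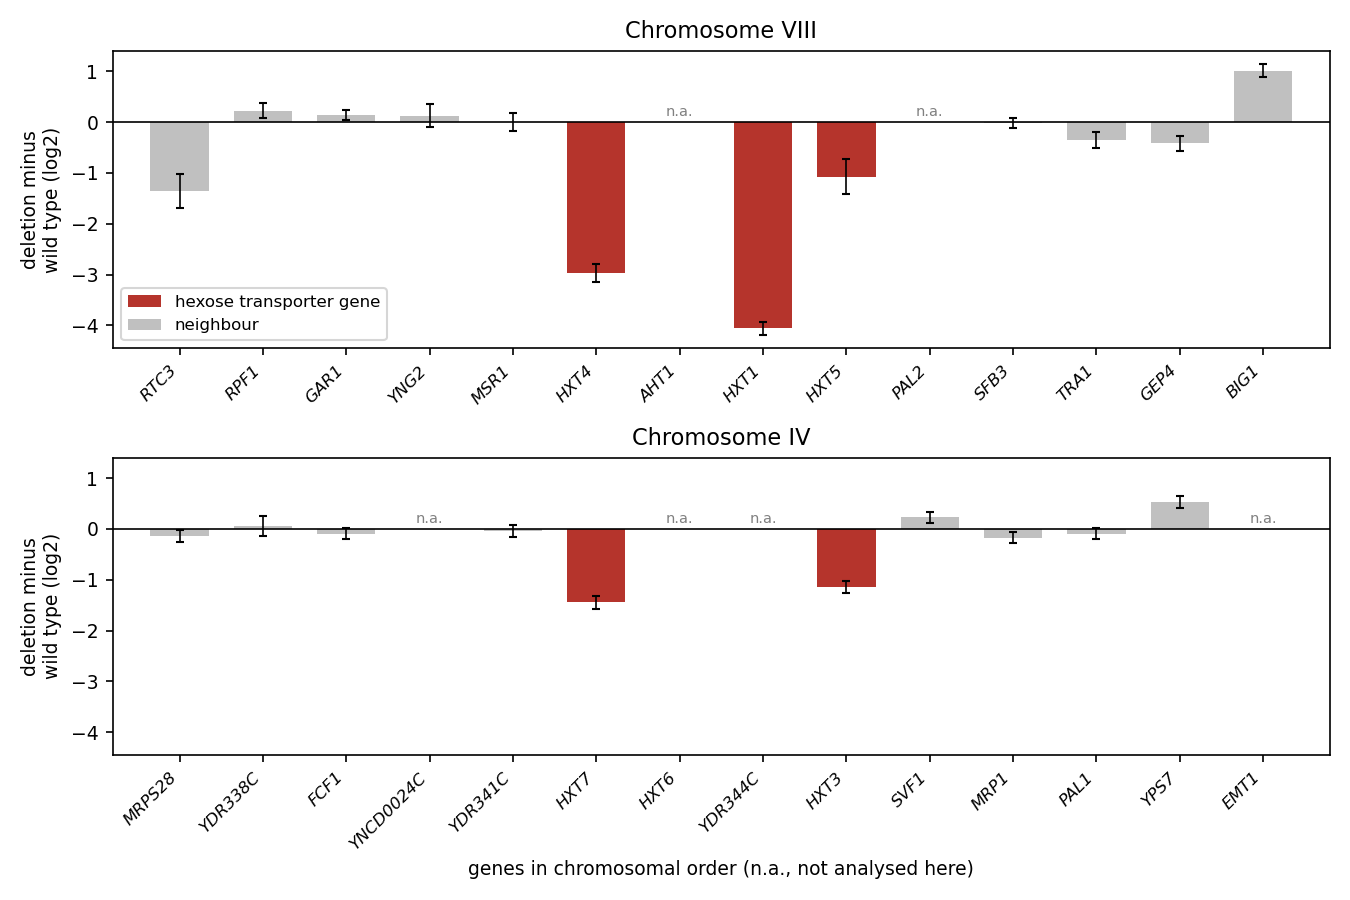
Difference of each gene (y axis, npl3 deletion minus wild type, log2, bars from 0 with 95% intervals) in chromosomal order along the 2 runs of hexose transporter genes (x axis). The transporter genes in red reach -4.06, -2.97 and -1.07 on chromosome VIII and -1.44 and -1.14 on chromosome IV. The neighbours in grey span -1.35 to 1.01 on chromosome VIII and -0.18 to 0.52 on chromosome IV.

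Of 10 genes of the glucose-sensing pathway that controls HXT promoters, 1 rose, 4 fell and 5 did not pass the test (median -0.12). Over all genes, 32.9% rose, 28.9% fell and 61.8% were called, so the list as a whole was not called more often. RGT1, which encodes the repressor of HXT genes, read 10.90, 10.65 and 10.81 in the deletion and 8.48, 8.71 and 8.68 in wild type cells. All deletion arrays stood well above all wild type arrays, and RGT1 rose by 2.16 (SE 0.08, 95% interval 1.97 to 2.36, adjusted p = 1.12e-06), or 4.47-fold, ranking 20 by size of rise. MTH1, whose product works with Rgt1 in repression, read 5.76, 5.52 and 5.70 in the deletion, against 6.82, 7.06 and 6.71 in wild type cells. It fell by 1.20 (SE 0.10, adjusted p = 3.87e-05).

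The sensor genes moved little. RGT2, the sensor of high glucose, fell by 0.27 (SE 0.07, adjusted p = 0.0103), averaging 7.04 in the deletion and 7.31 in wild type cells. SNF3, the sensor of low glucose, averaged 6.78 and 6.82 and did not pass the test (95% interval of the difference -0.23 to 0.15). The casein kinase genes YCK1 and YCK2 fell, with differences of -0.13 and -0.18. YCK1 lost its call with any 1 array left out (adjusted p up to 0.113) and under the replicate block, and YCK2 without npl3 deletion replicate 1 or 3 or wild type replicate 2 or 3 (adjusted p up to 0.0723). The number called in the list was 3 without npl3 deletion replicate 3, wild type replicate 2 or wild type replicate 3.

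Of 11 genes of glucose repression, 1 rose, 4 fell and 6 did not pass the test (median -0.06). The 5 called of these 11 are below the 61.8% called over all genes. MIG1, the main repressor gene, averaged 8.50 in the deletion and 8.50 in wild type cells (95% interval of the difference -0.12 to 0.13). Its relatives MIG3 and MIG2 fell, with differences of -1.84 (SE 0.04, adjusted p = 1.48e-07) and -0.42 (SE 0.07, adjusted p = 0.00143). MIG3 read 5.62, 5.56 and 5.57 in the deletion and 7.43, 7.41 and 7.43 in wild type cells, with little spread in either group. SIP2 and SNF4, which encode subunits of the Snf1 kinase, fell, with differences of -1.06 (SE 0.05, adjusted p = 2.42e-06) and -0.28 (SE 0.05, adjusted p = 0.00167). REG1, a regulatory subunit gene of the phosphatase that counters Snf1, rose by 0.20 (adjusted p = 0.0473), and lost that call in 5 of the 6 fits that left out 1 array (adjusted p up to 0.138), all but the one without wild type replicate 2.

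Imported hexose is phosphorylated by hexokinases and glucokinases, and 3 of the 4 genes of that list fell (median -0.69). Over all genes, 28.9% fell and 61.8% were called. HXK1 read 7.77, 7.73 and 7.73 in the deletion and 9.17, 9.45 and 9.65 in wild type cells. It fell by 1.68 (SE 0.11, adjusted p = 1.14e-05), with a wider spread in wild type cells (SD 0.24) than in the deletion (SD 0.02). The glucokinase gene GLK1 fell by 0.87 (SE 0.11, adjusted p = 2.48e-04) and its paralog EMI2 fell by 0.51 (SE 0.07, adjusted p = 5.22e-04). HXK2, the main hexokinase gene on glucose, averaged 11.66 in the deletion and 11.62 in wild type cells, a difference of 0.05 that did not pass the test (95% interval -0.05 to 0.15).

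GAL2 belongs to the galactose genes, of which 5 others were measured. All 5 were called, where 61.8% of all genes were. GAL10, GAL7 and GAL3 rose by 0.57, 0.50 and 0.41, whereas GAL1 and the repressor gene GAL80 fell, with differences of -0.74 and -0.49. GAL1, galactokinase, averaged 5.16 in the deletion and 5.89 in wild type cells, and GAL10, its divergent neighbour that encodes the epimerase, averaged 5.24 and 4.67. On these signals the structural genes did not move together, but they were dim. GAL7 and GAL10 averaged 4.35 and 4.67 in wild type cells, not far above the 4.04 that the deleted NPL3 reached, so the size of their changes is uncertain. Without the dimmest 25% of genes, only GAL80 of the list remained to be tested. GAL7 lost its call without npl3 deletion replicate 1 or 3 or wild type replicate 2 (adjusted p up to 0.0627). GAL4 was not analysed here.

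**Figure D4:**
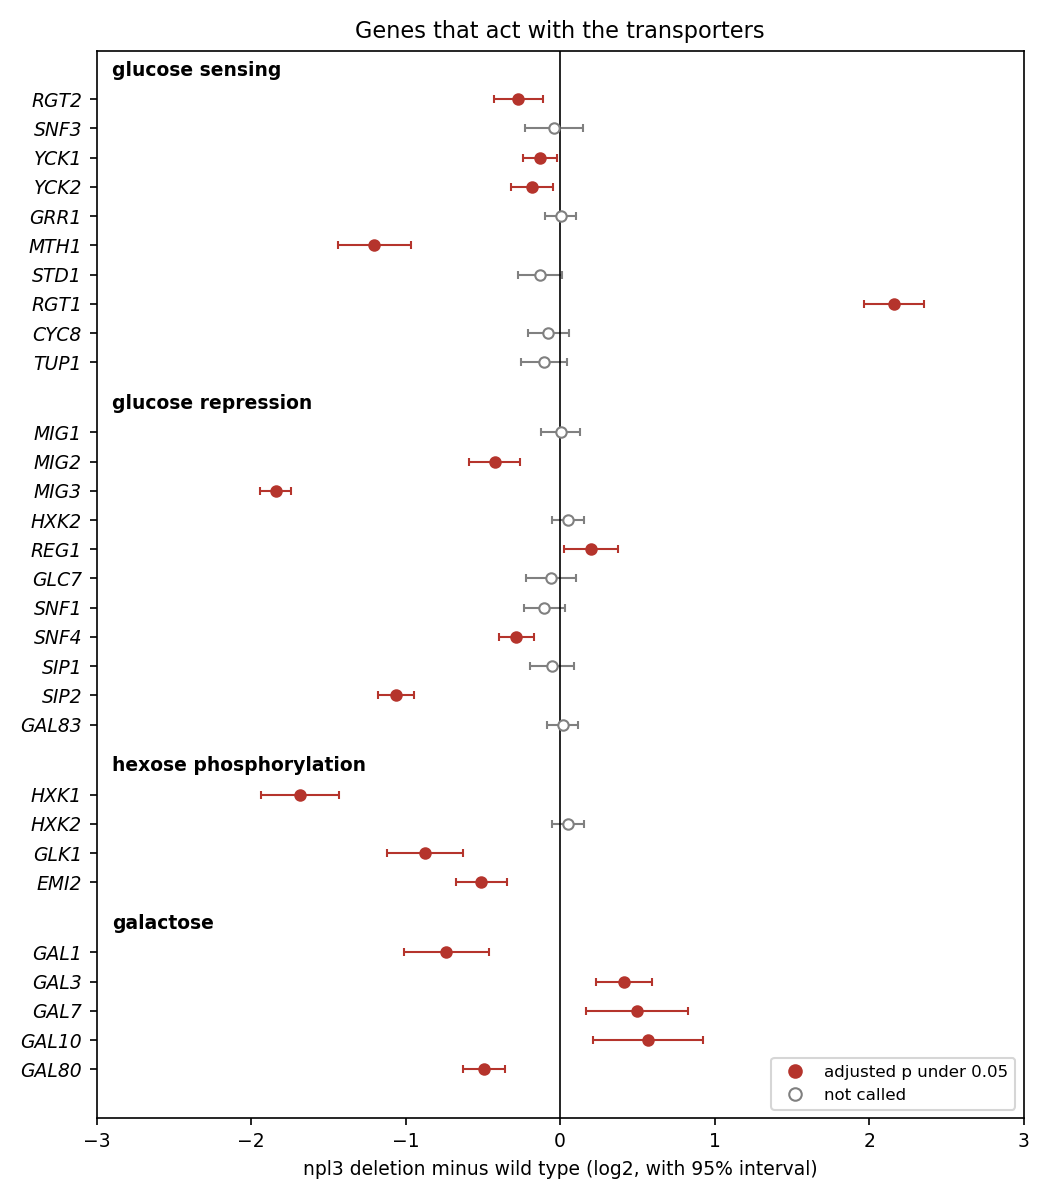
Difference of each pathway gene (x axis, npl3 deletion minus wild type, log2, with 95% interval), grouped by glucose sensing, glucose repression, hexose phosphorylation and galactose use, with called genes filled. RGT1 stands at 2.16, while MIG3, HXK1, MTH1 and SIP2 stand at -1.84, -1.68, -1.20 and -1.06, and MIG1, SNF3 and HXK2 lie close to 0. HXK2 belongs to 2 of the groups and is drawn in both.

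The genes most like HXT1, by Euclidean distance over the 6 arrays between values taken relative to each gene's wild type mean, were YRO2, YBR013C and TKL2, all on chromosome II. YRO2, which encodes a membrane protein related to Hsp30, averaged 4.52 in the deletion and 9.19 in wild type cells, at a distance of 1.16. YBR013C and the transketolase gene TKL2 lay at distances of 1.26 and 1.67. The differences of these 3 genes were -4.67, -4.77 and -3.21, beside -4.06 for HXT1. For the brightest probe set of HXT9, the nearest genes were CCR4, RIM15 and PTP2, at distances of 0.25 to 0.27, with rises of 0.74, 0.71 and 0.71. They lie on chromosomes I, VI and XV. The rise of CCR4 was not particular to it: ATS1 and FUN26, on either side of it on chromosome I, rose by 0.62 and 0.99. Genes farther along that chromosome also rose, among them VPS8 and SAW1 by 0.70 and 1.19, whereas SSA1 differed by -0.40.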

How the data were processed

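Per the labels, biotin-labelled cRNA made from 1 ug of total RNA of each culture was hybridised to an Affymetrix array. The deposited values are on a log2 scale, with 1 value for each probe set on each array. Per the submitters' processing notes, RMA and limma were used, with no version or setting stated there. The 6 arrays had medians of 4.81 to 4.98 and were not normalized again. RMA equalises arrays, so it would hide a shift common to most transcripts.

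Of 10928 probe sets, 5498 matched a gene of the reference table (assembly R64), which gave names, chromosomes and gene order. The brightest probe set stood for each of 5449 genes. For the test, lmFit and eBayes of limma 3.58.1 (R 4.3.3) were run with no covariates and a two-sided p, adjusted by Benjamini-Hochberg over all genes, and a threshold of 0.05, and the procedure was tested on simulated data. Tables, permutation tests and figures used Python 3.11.15, SciPy 1.17.1 and matplotlib 3.10.9. Samples with the same replicate number showed no positive correlation: deviations from the group means correlated at -0.14, -0.07 and -0.19 for numbers 1 to 3. Whether the numbers pair cultures or arrays cannot be told from these values. The number of arrays limits the precision.

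The members and lists were chosen with earlier results of these data known. Named were all 10 members, other family genes, the 3 largest called rises and falls of each pathway list, label checks, chromosomal neighbours and the most similar genes. SNF3, MIG1, HXK2, YCK1, SNF4 and the pairs of members were chosen after their values were seen. Promoter motifs and protein identity, planned, were not analysed here. Settings varied were a block on replicate number, the arrays included, normalizations, filters, variance models, weights, probe set rules and thresholds.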

Additional observations from a re-analysis of the deposited data

How the results depend on the processing

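Each of the 10 transporter genes kept its direction under every alternative that could give it a value, and the 8 called genes kept their calls there, apart from HXT8 when a fold of 1.5 was required. HXT1 ranged from -4.10 to -4.02 and HXT4 from -3.03 to -2.93. When single arrays were left out, 8 to 9 of the 10 were called, and 2926 to 3288 genes overall. With the replicate block, 8 of the 10 and 3035 genes were called. It ended the calls of YCK1 (adjusted p = 0.107) and REG1 (0.0962) and brought calls for HXT14 (0.0187) and HXT17 (0.0416), so that 5 of the 6 other family genes were called. Without the dimmest 25% of genes, 5 transporter genes remained to be tested (HXT1, HXT2, HXT3, HXT4 and HXT7) and all 5 were called. Requiring at least 1.5-fold gave 923 genes in place of 3369, and 7 of the 10. Among genes that did not pass the test, the sign turned for BAR1 under quantile normalization (0.013) and, with single arrays left out, for BAR1 (-0.18 to 0.065), MIG1 (-0.032 to 0.038) and SNF3 (-0.13 to 0.0043). The alternative with the second HXT9 probe set was added after the data were seen. HXT8, HXT10 and GAL2 are limited by signals close to those an absent transcript gives.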
